A study of Mus musculus with 6 samples.

Results

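The regions described here were the H3K4me3 peaks at gene promoters that were called in wild-type natural killer (NK) cells and had no overlapping peak in Tcf7-deficient NK cells. A peak belonged to the set if it came from the WT H3K4me3 list, lay on chromosomes 1 to 19 or X, shared no base with a KO H3K4me3 peak, and came within 1 kb of a transcription start site (TSS). There were 1398 such peaks among 13753 distinct WT H3K4me3 peaks on those chromosomes. Peak calls of both genotypes chose them, so their absence from the KO list is the rule and not a finding. Start sites were those of the 18604 gene features (Ensembl identifiers) that the 4 peak lists name.

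NK cells were taken from the spleens of mice. They were kept in culture for 5 days in IL-2 at 500 ng/mL, which drives NK cells to divide and arms them to kill. KO mice were Tcf7-/- on the background that the labels call B6.129 Tcf7Tm1Cle, and WT mice were Tcf7+/+ on B6. Strain and genotype therefore cannot be told apart. For the age of the mice and the number of animals per library, nothing was stated in those labels. Chromatin was precipitated with antibodies against H3K4me3 or Tcf1, the protein that Tcf7 encodes. The series has 6 libraries, 1 for each antibody or input in each genotype, so differences between the genotypes rest on single libraries and carry no p-value.

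H3K4me3, trimethylation of lysine 4 on histone H3, is laid down around the start sites of active and poised genes by the SET1 and MLL complexes. These complexes carry subunits that bind DNA rich in unmethylated CpG dinucleotides, so promoters in CpG islands usually carry the mark even at low transcription. Promoters poor in CpG, such as those of many immune receptors, tend to gain it when the gene is switched on. Tcf1 binds DNA through an HMG box, acts with beta-catenin in Wnt signalling, and can recruit Groucho corepressors of the Tle family.

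The promoters of 7 genes are shown because they carry the WT peaks of most tags for which a sequence was at hand. A tag is a read counted in a peak. Each runs 5′ to 3′ on the strand of the gene, from 250 bases before to 50 bases after a RefSeq start site (GRCm38.p6), and capitals mark CpG dinucleotides. They lie at chr1:88277530-88277829 (Hjurp, minus strand), chr12:54203825-54204124 (Egln3, minus), chr2:11502041-11502340 (Pfkfb3, minus), chr7:45704997-45705296 (Dbp, plus), chr14:55765712-55766011 (Ltb4r1, plus), chr11:3330481-3330780 (Pik3ip1, plus) and chr11:54100674-54100973 (P4ha2, plus).
Hjurp: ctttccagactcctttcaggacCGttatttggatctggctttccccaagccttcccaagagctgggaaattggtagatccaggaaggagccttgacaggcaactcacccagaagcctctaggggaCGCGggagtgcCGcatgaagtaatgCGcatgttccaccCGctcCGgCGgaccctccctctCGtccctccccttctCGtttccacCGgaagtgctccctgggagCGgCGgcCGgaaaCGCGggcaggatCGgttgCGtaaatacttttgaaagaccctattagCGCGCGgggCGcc
Egln3: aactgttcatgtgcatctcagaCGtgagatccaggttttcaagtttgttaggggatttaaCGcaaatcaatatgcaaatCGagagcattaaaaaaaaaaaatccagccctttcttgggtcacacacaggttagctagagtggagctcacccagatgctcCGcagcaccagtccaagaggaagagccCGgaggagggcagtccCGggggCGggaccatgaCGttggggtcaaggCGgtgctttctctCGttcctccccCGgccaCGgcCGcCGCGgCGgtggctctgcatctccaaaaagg
Pfkfb3: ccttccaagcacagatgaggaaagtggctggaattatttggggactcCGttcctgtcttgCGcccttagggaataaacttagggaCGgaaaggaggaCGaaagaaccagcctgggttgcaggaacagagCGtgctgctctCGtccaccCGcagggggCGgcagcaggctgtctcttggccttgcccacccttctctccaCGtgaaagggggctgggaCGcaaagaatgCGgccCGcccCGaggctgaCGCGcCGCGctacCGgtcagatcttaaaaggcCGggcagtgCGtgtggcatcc
Dbp: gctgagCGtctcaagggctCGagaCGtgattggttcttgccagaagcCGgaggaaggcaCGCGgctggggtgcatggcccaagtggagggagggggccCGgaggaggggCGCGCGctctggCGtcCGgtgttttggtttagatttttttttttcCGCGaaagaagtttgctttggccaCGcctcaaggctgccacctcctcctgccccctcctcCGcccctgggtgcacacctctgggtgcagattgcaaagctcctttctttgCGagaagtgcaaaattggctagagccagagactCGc
Ltb4r1: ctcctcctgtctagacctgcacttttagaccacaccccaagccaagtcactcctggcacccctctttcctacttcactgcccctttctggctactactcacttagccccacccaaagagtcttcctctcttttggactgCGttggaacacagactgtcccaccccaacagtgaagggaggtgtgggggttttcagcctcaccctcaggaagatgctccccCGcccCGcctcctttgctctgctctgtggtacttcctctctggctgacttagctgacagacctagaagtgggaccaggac
Pik3ip1: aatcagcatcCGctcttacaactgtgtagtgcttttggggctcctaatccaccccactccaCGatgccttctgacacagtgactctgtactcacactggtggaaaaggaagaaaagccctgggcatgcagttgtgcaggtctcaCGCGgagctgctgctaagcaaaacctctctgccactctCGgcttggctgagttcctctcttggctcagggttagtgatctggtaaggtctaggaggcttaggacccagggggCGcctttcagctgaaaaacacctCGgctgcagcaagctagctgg
P4ha2: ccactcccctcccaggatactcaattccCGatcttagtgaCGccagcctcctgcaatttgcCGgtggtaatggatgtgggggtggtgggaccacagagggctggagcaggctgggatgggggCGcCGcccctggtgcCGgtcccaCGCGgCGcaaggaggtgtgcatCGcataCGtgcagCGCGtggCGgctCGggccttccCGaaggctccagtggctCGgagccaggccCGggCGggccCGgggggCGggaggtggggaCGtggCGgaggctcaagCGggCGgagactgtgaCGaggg
The capitals show 2 kinds of promoter among these regions. Hjurp has 22 CpGs, Pfkfb3 20, Dbp 18, Egln3 16 and P4ha2 26. Ltb4r1 has 3 and Pik3ip1 has 7. The words that Tcf/Lef factors bind, CTTTGAA or CTTTGAT and likewise CTTTGTA or else CTTTGTT, were in none of the 7 on either strand. The word ACGTG, the core of the element that hypoxia-inducible factors (HIFs) bind, occurred on either strand in Pfkfb3, P4ha2, Egln3 and Dbp. It occurs in 19.6% of the 32851 promoters of that length in the RefSeq table. Where a sequence was at hand, it was in 24% of promoters at the WT-only peaks and 27.7% of those marked in both libraries.

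The mark itself was checked at genes that NK cells use. Promoters of the NK receptor genes Ncr1 (942 tags in KO, 572 in WT) and Klrb1c (1208 in KO, 977 in WT) and of the perforin gene Prf1 (1499 in KO, 1516 in WT) were marked in both libraries. The promoter of Tcf7 was too, with 535 tags in KO and 525 in WT, so the mark there does not report the loss of the protein. The lists held 11063 KO and 13753 WT peaks on these chromosomes, with 7505899 tags in KO and 6633224 in WT. These sums cover called peaks, not sequencing depth, which is unknown here. Scores, fold enrichments and false discovery rates (FDRs) are the authors' own values per peak.

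Most WT promoter peaks had a KO counterpart. Of 10567 WT peaks within 1 kb of a TSS, the 1398 make up 13.2% (95% Wilson interval 12.6 to 13.9%), and this is the rate against which counts of peaks are read. Counts of genes in lists are read against the 8.94% of named features that were called in WT alone, and counts of families against the 11.1% of named features marked in WT. Away from start sites 53.1% of WT peaks were called in WT alone. In the other direction, 64 of 9211 KO promoter peaks (0.695%) shared no base with a WT peak. All intervals cover counting error alone. PCR copies were not identified, so tags are not independent molecules.

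The WT-only peaks were weak. They held a median of 72 tags (quartiles 49 and 111, range 20 to 9716), against 522 (quartiles 315 and 827) at the 9169 promoter peaks that share a base with a KO peak. They were also shorter, with a median of 1304 bp against 2221 bp, and thinner, with 54.0 tags per kb of peak against 229. Their median score (the p-value given by MACS as -log10, times 10) was 161 against 3100, which is about the ceiling of the scale. The median fold enrichment over the caller's background was 8.25 against 42.4. Of the 1398, 957 (68.5%) held fewer than 100 tags, as did 249 (2.72%) of the shared peaks. Together the 1398 held 2.2% of the tags in WT peaks.

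The share with no KO counterpart fell steeply with the strength of the WT peak. Below 50 tags 354 of 416 WT promoter peaks (85.1%) were called in WT alone, and from 100 to 149 tags 272 of 649 (41.9%). From 200 to 299 tags the share was 5.11%, and from 400 to 599 tags it was 0.345%. At 1000 tags or more, 7 of 1521 (0.46%) had no counterpart. Where a counterpart existed its strength followed that of the WT peak. KO peaks at shared promoters had a median of 62.5 tags below 50 WT tags, 85.5 from 50 to 74 and 433 from 300 to 399. KO promoter peaks of any kind began at 28 tags, and their median fold enrichment was 19.6. How far the KO list's own limit of calling set the members was not tested.

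**Figure D1:**
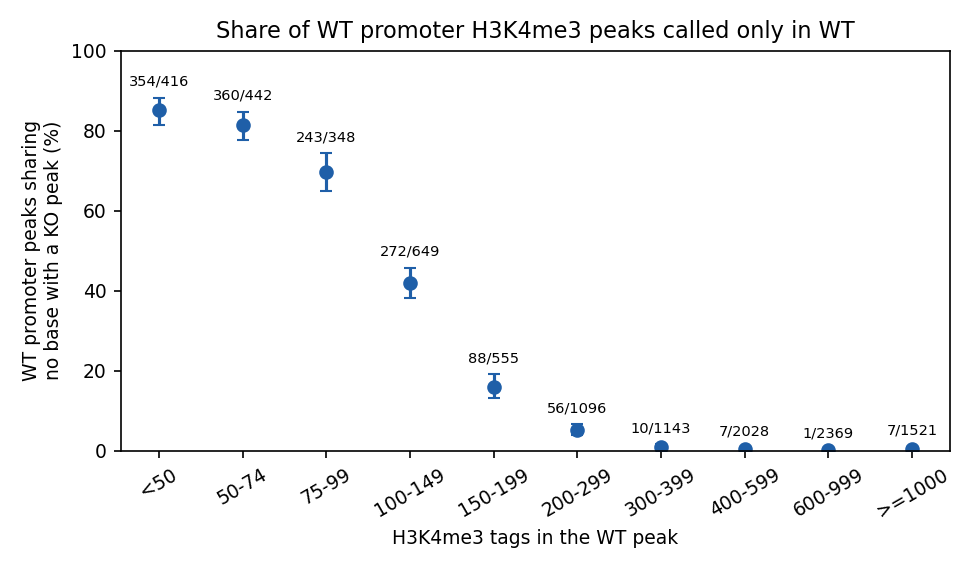
Share of WT promoter H3K4me3 peaks that share no base with a KO peak (y axis, percent), by tags in the WT peak (x axis). Points are shares with 95% Wilson bars, and the fraction above each gives the peaks called only in WT over all WT promoter peaks in the bin; the share drops from 85.1% below 50 tags to under 1% from 300 tags up.

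A KO peak was usually far away. The nearest KO H3K4me3 peak lay 50 kb or more from 702 of the 1398 and between 5 and 50 kb from 572. In all, 1274 (91.1%, interval 89.5 to 92.5%) had none within 5 kb. For 36 the gap was under 1 kb. The smallest gaps were 36 bp at 4930427A07Rik, 41 bp at Oaz1, which encodes a regulator of polyamine synthesis, and 42 bp at Atp6v1g2, which encodes a subunit of the vacuolar proton pump. The KO peaks next to these 3 held 434, 1118 and 740 tags. Just beyond the rule, the WT peak at Pdlim2 overlapped a KO peak by 10 bp and that at Nub1 by 41 bp, where the KO peaks held 467 and 618 tags. At the other edge, the peaks farthest from a start were at Pgr, 993 bp away, Rgs11, 983 bp away, and an unnamed feature on chromosome 5, 977 bp away. The nearest peaks left out lay 1004, 1005 and 1010 bp from a start.

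Nearness to a start is fixed by the rule, so positions within it are given as a description. A start site lay inside 1240 of the 1398 (88.7%), against 97.6% of shared peaks. Their summits, measured on the strand of the gene, had a median position 175 bp downstream of the nearest start, against 258 bp for shared peaks. The summit was within 250 bp of the start in 55.6%, against 41.1% of the longer shared peaks. Start sites on both strands fell within 1 kb of 9.87%, against 20.4% of the shared peaks, whose greater length takes in more sequence. The orientation of these starts was not checked, so they need not be divergent promoters. The nearest feature was a RefSeq protein-coding gene for 82% of them and 90.2% of shared peaks, and it had no RefSeq entry for 14.4% against 6.88%.

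They were spread over all chromosomes. The share of WT promoter peaks called in WT alone ran between 10.3% on chromosome 18 and 16.4% on X (57 of 347, interval 12.9 to 20.7%). Since a gene knockout made on another background can carry a stretch of donor chromosome, the neighbourhood of Tcf7 on chromosome 11 was examined. Within 10 Mb of the gene 17 of 153 WT promoter peaks (11.1%) were called in WT alone, against 96 of 733 (13.1%) elsewhere on that chromosome. Runs of neighbouring members did occur. A run of 6 lay at chr4:145640367-146580922 (67 to 125 tags), 5 at chr14:3332648-7315112 (23 to 52 tags) and 4 at chr1:72225594-72284693, beside Pecr (40 to 83 tags). In each of these runs most features are unnamed models or predicted genes of the Gm type.

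Among the 25 members with 300 tags or more, 14 had a protein-coding gene as their nearest feature and 7 had a feature with no symbol. The 2 tallest peaks were of the last kind. They lay at chr17:39842642-39849368 with 9716 tags and at chr14:19415194-19419844 with 5674 tags, yet with fold enrichments of only 2.64 and 2.22. Both also overlapped Tcf1 peaks in both genotypes. Those held 11235 tags in KO and 11097 in WT at the first and 5692 in KO and 6745 in WT at the second. Their FDRs were 50% in KO and 100% in WT at the first, and 50% in both genotypes at the second. Another, at chrX:170001319-170013288, held 1952 tags over 11970 bp. These 3 carried 11.9% of all tags of the set. The peaks at chr16:11143543-11144770 (562 tags) and chr5:146260837-146261912 (542) were likewise at unnamed features and on Tcf1 peaks of both genotypes, and that at chr11:3121705-3125102 (382) was at an unnamed feature without one. A further 3 of over 1000 tags stood close together on chromosome 8, at the transcribed pseudogenes 2610005L07Rik (1098 tags) and 6820431F20Rik (1060) and at an unnamed feature (1030, with a KO peak of 153 tags 4582 bp away). Pseudogenes and unnamed models can have near-identical copies among which reads are split, so these values are uncertain.

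Of the named genes, Hjurp had the most tags. Its product is the chaperone that loads the centromeric histone CENP-A. The WT peak at chr1:88272351-88278823 held 1747 tags over 6473 bp (score 2309, fold enrichment 17.4), and it also covers the start of Trpm8, which encodes a cold-sensing ion channel. The nearest KO peak was 263326 bp away. Hjurp was the single one of 38 cell cycle and replication genes with a start site in the lists that was called in WT alone, while 36 were marked in both libraries.

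Genes of the response to low oxygen followed. Cells keep HIF transcription factors low in oxygen by prolyl hydroxylation of their alpha subunits, and HIF targets include the hydroxylases themselves. Egln3, one of those hydroxylases, had a WT peak of 670 tags at chr12:54200624-54204333 (fold enrichment 30.4) with no KO peak within 450881 bp. Pfkfb3, whose product makes the activator of phosphofructokinase and so drives glycolysis, had 552 tags at chr2:11500378-11504146, with the nearest KO peak 30730 bp away. P4ha2, a subunit of the collagen prolyl hydroxylase, had 333 tags at chr11:54100178-54102015. Epas1, which encodes a HIF alpha subunit, had 214, and Car12, a carbonic anhydrase, had 67. These 5 were called in WT alone among 39 genes of the hypoxia list (12.8%, interval 5.6 to 26.7%), and 32 were marked in both, among them Egln1 with 1754 tags in KO and 1863 in WT. That interval holds the 8.94% of all named features. Over all 18604 features the share was 8.2%. Among 22 glycolysis genes, 2 were called in WT alone (9.09%, interval 2.53 to 27.8%). They were Aldoc (209 tags, an aldolase), 2997 bp from a KO peak, and Eno2 (51 tags, an enolase). Summed over the 39 hypoxia genes the promoter peaks held 22714 tags in KO and 29067 in WT. The 5 members have no KO tags by the rule, and without them the WT sum was 27231. The count of 5 became 10 with FDRs of at most 1%, a cut that also removes KO peaks, and 3 with RefSeq protein-coding start sites.

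Clock genes had 4 of 20 promoters called in WT alone (20%, interval 8.07 to 41.6%, which holds the 8.94% of named features). The molecular clock is a feedback loop in which Clock and its relative Npas2 activate Period genes, and the PAR bZIP factors Dbp and Hlf pass the rhythm on. Dbp held 544 tags at chr7:45705016-45708647, with the highest fold enrichment of the set (46.0). A KO peak of 303 tags lay 5511 bp from it. Npas2 held 165 tags, Per3 102 and Hlf 61. The other period genes were marked in both libraries, Per1 with 213 tags in KO and 410 in WT and Per2 with 267 in KO and 207 in WT. Clock had 1471 tags in KO and 1460 in WT. The labels state no time of day for the collection.

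The receptors and effectors of NK cells were mostly marked in both libraries. Of 39 NK receptor and adaptor genes, 24 were, 6 were called in WT alone (15.4%, interval 7.25 to 29.7%) and 3 in KO alone. That interval holds the 8.94% of named features. Those in KO alone were Klrg1, which encodes an inhibitory receptor (158 KO tags), the Ly49 gene Klra9 (110) and Crtam (90). Fcgr3, which encodes the activating receptor for IgG, held 493 WT tags at chr1:171063475-171067163 at a fold enrichment of 7.07, but a KO peak of 217 tags stood 3404 bp away. Klrc1, which encodes the inhibitory receptor NKG2A, held 211 tags, and the inhibitory receptor gene Tigit held 199. Klra4 (99 tags) and Klra3 (23) belong to the Ly49 receptor family, and Klrc3 (62) is a neighbour of Klrc1. Other Ly49 genes had more tags in KO, with 90 in KO and 44 in WT at Klra8 and 43 in KO and 33 in WT at Klra7. Klrc2, in the same cluster, was marked in both, with 47 tags in KO and 96 in WT. Klrk1, which encodes NKG2D, held 272 in KO and 388 in WT. The Ly49 genes differ in number and sequence between mouse strains, and strain differs between the genotypes here.

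Granzymes and other effectors gave 4 of 24 (16.7%, interval 6.68 to 35.9%), and 0 with lists of equal length. These were Lta, which encodes lymphotoxin alpha (103 tags, with a KO peak of 901 tags 2001 bp away), Csf2, the GM-CSF gene (82), and the granzyme genes Gzme (81) and Gzmd (64). All 4 were near the median strength of the set. None of 34 transcription factors of NK and innate lymphoid cells, 32 respiratory chain genes or 19 housekeeping genes was called in WT alone; 30, 32 and 19 of them were marked in both. A count of 0 among 34, 32 and 19 allows shares of up to 10.2%, 10.7% and 16.8% (Wilson). Of 43 cytokine receptor and JAK-STAT genes there were 2 (4.65%, interval 1.28 to 15.5%), the interferon gamma receptor chain gene Ifngr2 (62 tags) and Il6ra (48). Among 38 interferon-stimulated genes there were 4 (10.5%, interval 4.17 to 24.1%), the antiviral genes Mx2 (142), Gbp3 (92), Rsad2 (87) and Oas1g (34). Of 38 sterol and lipid genes 1 was (2.63%, interval 0.466 to 13.5%), the cholesterol exporter gene Abca1 (80). The granzyme, cytokine receptor, interferon-stimulated and sterol intervals all hold the 8.94% of named features.

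**Figure D2:**
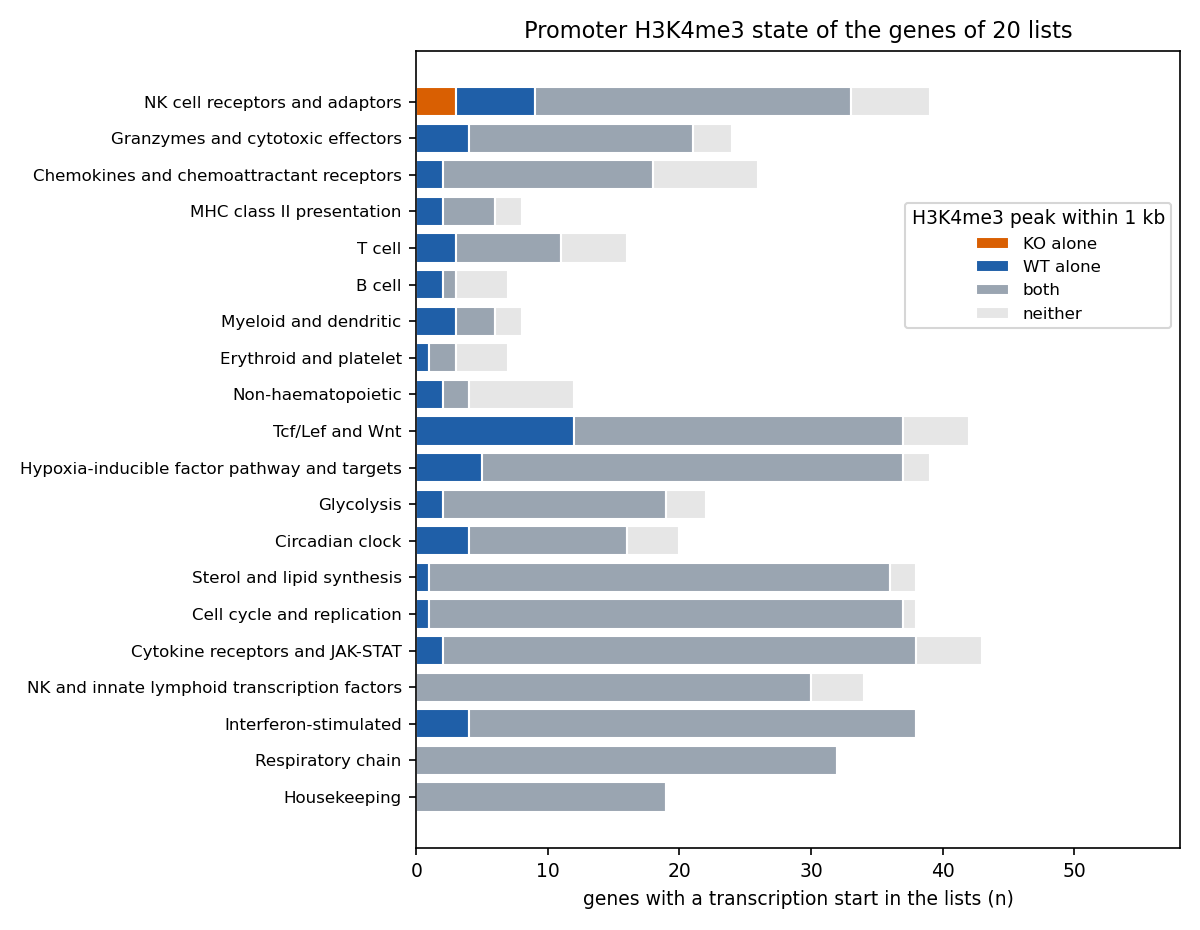
Number of genes with a start site in the lists (x axis) in each of 20 gene lists (y axis), split by H3K4me3 peaks within 1 kb of the start in KO alone, WT alone, both or neither library. The WT-alone part of Tcf/Lef and Wnt includes Ccnd1, whose WT peak shares bases with a KO peak farther from the start, beside the 11 members; housekeeping and respiratory chain genes were marked in both.

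The Wnt pathway and the Tcf/Lef family, to which the deleted factor belongs, had 11 of 42 promoters called in WT alone (26.2%, interval 15.3 to 41.1%, above the 8.94% of named features), and 25 were marked in both. The count was 6 with the WT list cut to the length of the KO list and 17 with FDRs of at most 1%, a cut that also removes KO peaks. The corepressor gene Tle1, of the Groucho family that Tcf factors recruit, led with 225 tags and had no KO peak within 907282 bp. Wnt receptors and a co-receptor made up 5 more, Fzd3 (138 tags), Fzd1 (117), Lrp5 (114), Fzd9 (113) and Fzd2 (41). Antagonists or inhibitors of the pathway were Apcdd1 (100), Wif1 (65), Nkd2 (60) and Sfrp1 (26), and the last of the 11 was Dkkl1 (89). The wider core was marked in both, with Lef1 at 1437 tags in KO and 1463 in WT, Lrp6 at 1228 in KO and 1164 in WT and Tle3 at 2772 in KO and 2706 in WT. Of the 11, 10 held fewer than 150 tags, the range in which 68.6% of all named features marked in WT were called in WT alone. The 42 promoters together held 21389 tags in KO and 20597 in WT, or 19509 in WT without the 11.

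Markers of other cell types were among the members. MHC class II presents peptides to helper T cells and is a mark of B and dendritic cells. Its beta chain gene H2-Ab1 held 520 tags at chr17:34263046-34265879 (fold enrichment 41.4), with the nearest KO peak 56844 bp away, and H2-DMa, which encodes a chaperone of class II loading, held 50. These were 2 of 8 class II genes (interval 7.15 to 59.1%), of which 4 were marked in both. B cell markers gave 2 of 7 (interval 8.22 to 64.1%), Sdc1 (249 tags, a plasma cell proteoglycan) and Tnfrsf13c (52, the BAFF receptor). Myeloid and dendritic markers gave 3 of 8 (interval 13.7 to 69.4%), Cebpa (113 tags), the endotoxin co-receptor gene Cd14 (95) and the dendritic cell factor gene Batf3 (72).

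T cell markers gave 3 of 16 (interval 6.59 to 43%), Ubash3a (116 tags, a brake on receptor signalling) and the CD3 genes Cd3e (64) and Cd3d (35). Of 7 erythroid and platelet genes 1 was called in WT alone, Epor with 56 tags (interval 2.57 to 51.3%). Markers from outside blood gave 2 of 12 (interval 4.7 to 44.8%), the E-cadherin gene Cdh1 (266) and the vascular receptor gene Kdr (58). Genes of chemokines and chemoattractant receptors gave 2 of 26 (7.69%, interval 2.14 to 24.1%). These were Ltb4r1, for leukotriene B4 (453 tags, 1214 bp from a KO peak of 171 tags), and the oxysterol receptor gene Gpr183 (89). The class II, B cell, T cell, erythroid, non-blood and chemoattractant receptor intervals hold the 8.94% of named features. The myeloid interval lies above it, but all 3 of its genes held fewer than 150 tags. In that range 68.6% of all named features marked in WT were called in WT alone. With lists of equal length the class II, B cell, T cell and myeloid lists each had 1 gene called in WT alone. Over each whole marker list the promoter tags summed to 301 in KO and 648 in WT for B cell genes, 914 in KO and 1150 in WT for myeloid genes, 4676 in KO and 5158 in WT for T cell genes and 2286 in KO and 2556 in WT for class II genes. The members have no KO tags by the rule. Without them the WT sums were 347 for B cell, 870 for myeloid, 4943 for T cell and 1986 for class II genes. No peak of either library lay at 4 of 7 B cell, 2 of 8 myeloid and 5 of 16 T cell genes. Csf1r and Cd3g had no feature in the lists. What share of the cells was of another type was not tested.

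**Figure D3:**
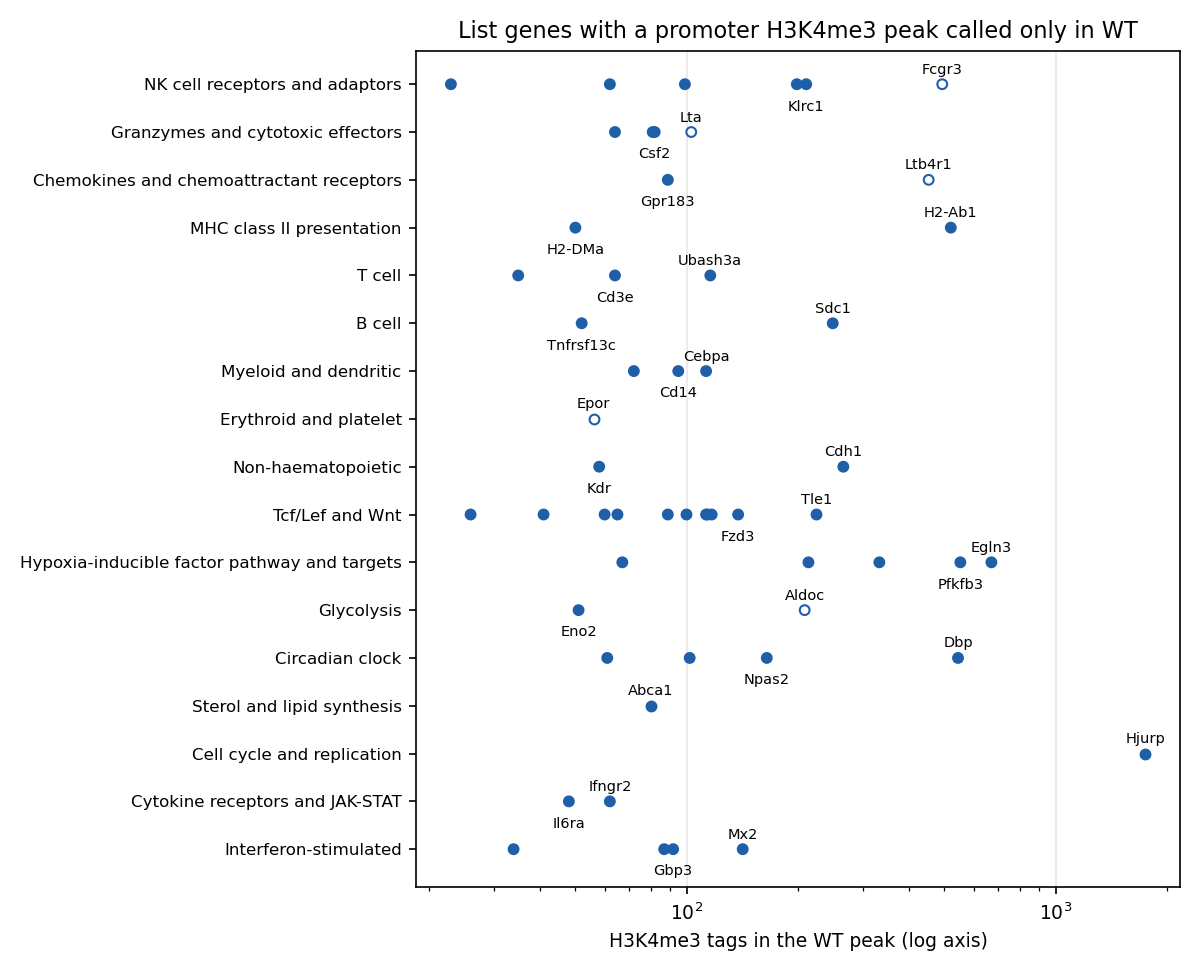
H3K4me3 tags in the WT peak (x axis, log scale) at the 55 genes of the lists whose promoter peak was called only in WT, by list (y axis). Filled points had no KO peak within 5 kb and open points had one; the highest 2 genes of each list are named, and Hjurp, Egln3, Pfkfb3, Dbp and H2-Ab1 lie above 500 tags.

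Other named members with many tags were of mixed function. Tmem119, a microglia marker in brain, held 390 tags. The PI3 kinase inhibitor gene Pik3ip1 shared a peak of 378 tags with the non-coding RNA Gm12592. Lrrc32, whose product docks latent TGF-beta on regulatory T cells, held 356, and the planar polarity cadherin gene Celsr1 held 323. Gm16754 held 321 and Plxnc1, a semaphorin receptor gene, 317. On X the named members with most tags were Lonrf3 (175), Pdzd4 (166), C77370 (151) and Map7d2 (138).

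Families defined by their symbols differed in the share called in WT alone. The families with most features called in WT alone were RIKEN clone genes (59 of 586, 10.1%) and gene models named Gm (35 of 314, 11.1%). Of 28 features with homeobox, Pax or Sox symbols marked in WT, 22 (78.6%, interval 60.5 to 89.8%) were called in WT alone, against 11.1% of all named features marked in WT. The 22 include the non-coding Nkx2-2os (69 tags) and no Pax gene. The proteins of such genes regulate development, as with Pou4f1 (152 tags), Sox4 (138), Meis1 (128) and Lhx4 (76), named here after their values were seen. Ion channel genes gave 23 of 43 (53.5%), among them the potassium channel genes Kcnj11 (122) and Kcnc1 (99). Forkhead genes gave 9 of 22, led by Foxc1 (306) and Foxq1 (265), and receptors named Gpr or Adgr 14 of 36. Ribosomal protein genes gave 1 of 81 and small RNA genes 0 of 26.

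These families also differed in the strength of the mark, and developmental genes marked in WT had a median of 75.5 tags against 499 for all named features. Among promoters under 150 WT tags, 21 of 22 developmental genes (95.5%), 22 of 24 ion channel genes (91.7%) and 6 of 7 forkhead genes were called in WT alone, against 1112 of 1620 named features (68.6%). In that range microRNA genes gave 7 of 9, Gpr or Adgr receptors 13 of 17, Tmem genes 19 of 26 and solute carriers 21 of 30. Intervals were not computed for these shares, and several rest on few features. Gene models named Gm gave 27 of 55, RIKEN clone genes 49 of 82 and TNF receptors 3 of 5. Zinc finger genes named Zfp gave 20 of 49 (40.8%) and clustered histone genes 3 of 13. Inside this range the share of WT promoter peaks called in WT alone fell from 85.1% below 50 tags to 41.9% from 100 to 149. Families were not matched for tags within it. Histone genes share near-identical copies, so their reads may be split.

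**Figure D4:**
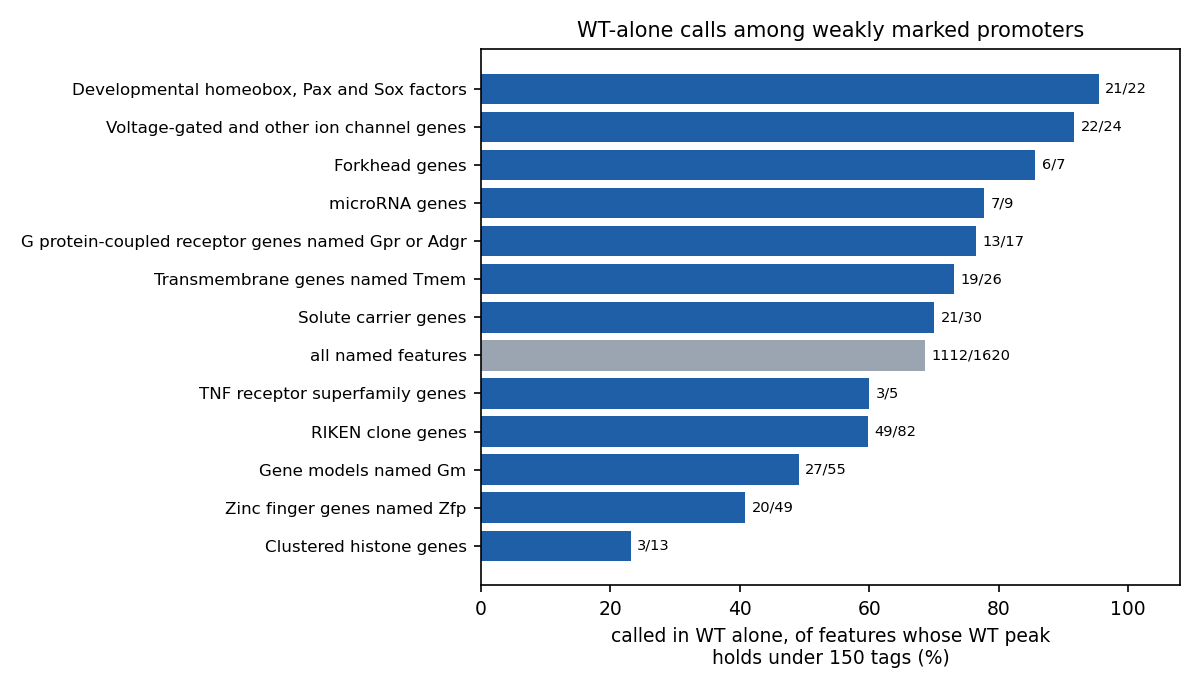
Share of features called in WT alone (x axis, percent) among features whose WT promoter peak held under 150 tags, by gene family (y axis), with the fraction beside each bar; families with under 5 such features are left out. Developmental, ion channel, forkhead, microRNA, Gpr or Adgr, Tmem and solute carrier genes stand above the 68.6% of all named features (grey). TNF receptor, RIKEN, Gm, Zfp and histone genes stand below it, and no intervals are drawn.

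Promoter sequence could be read for 906 of the 1525 features at members (59.4%) and 69.4% of those marked in both libraries. With fewer than 80% of features covered, the comparison of base composition is void for the set as a whole, and the values describe the covered promoters alone. The CpG ratio, observed CpG over that expected from C and G content, had a median of 0.714 at members, against 0.814 at promoters marked in both and 0.384 over all promoters of the table. The order was the other way at matched strength below 300 WT tags. The median ratios were 0.699 at members and 0.545 at promoters marked in both below 75 WT tags. They were 0.727 and 0.638 from 75 to 149, and 0.763 and 0.716 from 150 to 299. At 300 tags or more members were again lower, at 0.718 (10 promoters) against 0.84 (6335 promoters). The median GC content was 64.3% at members and 62% at promoters marked in both. Compared at 75 to 149 WT tags, the medians were 64.7% at members and 56.3% at promoters marked in both. At 300 tags or more they were 60.7% and 63%. The libraries themselves differed with GC content. The log2 ratio of KO over WT tags at promoters marked in both had a median of 0.32 at GC contents of 31.7 to 55.7% and of 0.20 at GC contents of 68% or more. Its part in which peaks were called was not tested.

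Among the covered promoters the word CCGGAAG, bound by ETS factors, was found on either strand in 6.07% at members, against 22.2% at promoters marked in both, 13.8% of those marked in both with under 150 tags, and 8.86% of all promoters. The NRF1 motif was in 5.41%, against 12.7% (7.73% under 150 tags) and 4.6% of all. The 4 Tcf/Lef words were in 9.05%, against 10.3% (13% under 150 tags) and 16.9% of all. ACGTG was in 24%, against 27.7% (22.4% under 150 tags) and 19.6% of all. GGGCGG, the Sp1 box, was in 70% (interval 66.9 to 72.9%), against 69.6%, 51.4% of those under 150 tags (interval 46.2 to 56.5%) and 35.7% of all. The E-box word CACGTG, which contains ACGTG, was in 9.93%, against 10.8% (8.56% under 150 tags) and 7.15% of all.

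Few members carried a Tcf1 peak. In KO cells, which lack the protein, the antibody's peaks overlapped 27 of 1398 (1.93%, interval 1.33 to 2.8%), against 18 of 9169 shared peaks (0.196%). In WT cells they overlapped 16 (1.14%, interval 0.706 to 1.85%), against 28 shared peaks (0.305%). Over all WT promoter peaks the rates were 0.426% for KO Tcf1 peaks and 0.416% for WT Tcf1 peaks. The Tcf1 lists held 5090 peaks in KO and 848 in WT on these chromosomes. The 2 genotypes' Tcf1 peaks met at 11 members, of which 1 had a named nearest feature. Beside the tall peaks above, those with the highest WT Tcf1 scores lay at chr9:56223094-56224359 (342 Tcf1 tags in KO, 328 in WT), chr13:9833754-9835052 (129 in KO, 123 in WT), chr7:130834037-130835080 (85 in KO, 73 in WT) and chr4:146579483-146580922 (66 in KO, 62 in WT). KO Tcf1 peaks alone overlapped 16 members, with 10 to 46 tags each, and included those at Epha7, Gprin1, Syt9 and Sfrp1, all at FDRs of 79.85% or more.

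Tcf1 peaks called in WT and not in KO overlapped 5 members. The one with the highest score was at Fgf18, which encodes a fibroblast growth factor, with 85 Tcf1 tags and an FDR of 4.35%, under an H3K4me3 peak of 118 tags. The others were Zfhx4 (16 Tcf1 tags, FDR 27.71%), Gm12541 (28 tags, FDR 20.52%) and 2 unnamed features on chromosome 4. These lay at chr4:145744529-145746100 (75 Tcf1 tags, FDR 6.98%) and chr4:147274890-147276597 (96 Tcf1 tags, FDR 27.46%). With RefSeq protein-coding start sites alone, the shares overlapping KO Tcf1 peaks were 0.951% of members and 0.0378% of shared peaks. For WT Tcf1 peaks they were 0.19% and 0.227%, so the order of members and shared peaks turned round. A Tcf1 peak called in WT alone lay within 50 kb of 41 members (2.93%, interval 2.17 to 3.95%), against 245 shared peaks (2.67%, interval 2.36 to 3.02%), and the intervals overlap. Within 10 kb the shares were 0.93% (interval 0.544 to 1.58%) and 0.578% (interval 0.442 to 0.755%). A KO Tcf1 peak lay within 50 kb of 15.3% (interval 13.5 to 17.3%), against 12% (interval 11.3 to 12.7%) of shared peaks. Within 10 kb it was 4.15% (3.22 to 5.33%), against 180 of 9169 (1.7 to 2.27%), and neither pair of intervals overlaps. These distances take in direct overlap, which 27 members and 18 shared peaks had with KO Tcf1 peaks. Whether nearness differed apart from overlap was not tested.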

How the data were processed

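H3K4me3 and Tcf1 ChIP libraries of KO and WT NK cells were analysed, 1 library per group, while input libraries were not analysed here. Reads were aligned and peaks called by the submitters, whose processing notes list MACS 1.4 and Bowtie2 2.1.0. Those notes also list GRCh37, GRCm38 and mm10 without saying what each was for. Settings of the peak caller and its control track: not given in the sources used here. Peaks were called per library, since each library has its own list.

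For each peak the authors deposited a raw count of tags. The score, per the file headers, is -log10 of the caller's p-value multiplied by 10, and the deposited scores have a ceiling near 3100. The deposited fold enrichment is a ratio over the caller's background. The deposited FDR is in percent. Rows were reduced to distinct peaks, and starts, which counted from 0, were converted to count from 1. Positions were read as GRCm38/mm10.

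Overlap was at least 1 bp. The TSS was the start of a feature on the plus strand and its end on the minus strand, over features of all 4 lists. Only features listed with a peak have a TSS here, so list denominators are genes near some peak (496 of 666 list genes). A gene counted as called in WT alone if its TSS was within 1 kb of a member and of no KO peak. RefSeq promoters were matched by gene ID, strand and a start within 1 kb.

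The members, the 20 lists and the 19 families were chosen with earlier results of these data known. The text gives the 20 members with most tags, the 20 with most tags among those without a KO peak within 5 kb, up to 4 WT-alone genes per list by tags, 10 members by Tcf1 score, the members at the edges of the rule and the 5 on X with most tags. Genes beyond that rule, including list and family members, Tcf1-overlapping members and genes marked in both libraries, were named after their values were seen. Shares have 95% Wilson intervals, except those of families under 150 tags, and no test was made across genes. The overlap and sequence steps were tested on simulated data. Python 3.11.15, numpy 2.4.6, pandas 2.3.3 and matplotlib 3.10.9 were used.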

Additional observations from a re-analysis of the deposited data

How the results depend on the processing

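No paired analysis was possible because each group held 1 library, and for the same reason no replicate could be left out. The 1398 members became 505 with the WT list cut to the length of the KO list by score, and with lists of equal length the share of WT promoter peaks was 5.33%, the median 125 tags, the median CpG ratio 0.758 and the list genes 26 in place of 55. That alternative removes the weakest WT peaks by construction. With an FDR of at most 1% the share rose to 18.4%, the median to 91 tags and the list genes to 84. FDRs reached 29.5% at KO promoter peaks and 1.38% at those of WT. Under this cut the set can grow only through loss of KO peaks, so the rise does not come from stronger WT peaks. With scores of at least 100 they were 12.3% and 102 tags. The share was 12.2% with peaks that cover a TSS, 14.1% with a window of 2.5 kb (89.2% of members then clear of KO peaks by 5 kb) and 12.1% without members that have a KO peak within 5 kb. Members clear of KO peaks were 96.5% at 2 kb and 84.3% at 10 kb.

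With RefSeq protein-coding start sites the share was 11.7%, and 0.951% overlapped a KO and 0.19% a WT Tcf1 peak. That alternative was first built on genes present in the promoter sequence table, which leaves out protein-coding genes such as H2-Ab1, Cdh1 and Epas1, and was then rebuilt on RefSeq gene positions. The first version is kept as an alternative chosen after seeing the data, and gave 874 members, a share of 11.2%, and overlaps of 1.03% with KO and 0.114% with WT Tcf1 peaks. Leaving out members on a Tcf1 peak, also chosen after seeing the data, gave 1366. The GC content of promoters is given as a value of its own beside the CpG ratio. Of the comparisons with shared peaks, the median tags, CpG ratio and Tcf1 overlaps, and of the families the developmental one, were recomputed under these alternatives, a choice made after seeing the data. The share on WT Tcf1 peaks minus that of shared peaks was 0.839 percentage points and reversed to -0.0366 with RefSeq protein-coding start sites and to -0.16 with genes of the promoter table, where the difference for KO Tcf1 peaks was 0.914 and 0.972 in place of 1.74. With lists of equal length the WT Tcf1 difference was 1.28 and that of the CpG ratio -0.0575 in place of -0.0994. The other families, motifs, positions and distances to Tcf1 peaks were not recomputed. List counts moved by over 1.5 times in 32 list and setting pairs. Of the 55 list genes 13 were called in WT alone under all 12 alternatives of the peak and TSS rules, among them Egln3, Dbp, Hjurp, Tigit and Tle1. Fcgr3, Ltb4r1, Lta, Aldoc and Epor dropped out when a KO peak within 5 kb was not allowed. Depth is unknown, so whether a weak KO mark lay below the limit of calling could not be seen.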
